A study of Homo sapiens with 18 samples.

Results

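The integrin and laminin chain genes were followed in 2 human uveal melanoma cell lines exposed to inhibitors of EHMT2 (G9a), a histone methyltransferase. Members were taken by symbol alone, as all rows named ITGA, ITGB, LAMA, LAMB or LAMC with a chain number or letter, which gave 38 of the 26475 genes in the table. They comprised 18 integrin alpha chains, 8 integrin beta chains, 5 laminin alpha chains, 4 laminin beta chains and 3 laminin gamma chains. Mel92.1 and MP41 are established lines from tumors of the eye, and both were grown in RPMI with serum. The labels give the lines the same serum content, but the methods of the study give MP41 a higher one, so that line and medium cannot be told apart with certainty. Cells of either line received DMSO, UNC0642 at 1 µM or A366 at 1 µM for 48 h, and RNA-seq was performed on 3 libraries per line and treatment, 18 in all, which the series describes as biological replicates. DMSO is the solvent control, and UNC0642 and A366 are small molecules that both inhibit EHMT2.

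Integrins are receptors of the cell surface built from 1 alpha and 1 beta chain, and the pair decides which matrix protein is bound. Laminins are secreted trimers of 1 alpha, 1 beta and 1 gamma chain that assemble into the basement membrane and are themselves bound by several integrins. A chain without its partners is generally not delivered to the surface or secreted efficiently. Melanocytes and melanoma cells attach through such receptors, and changes in the set of chains have long been studied in melanoma invasion.

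The smallest library held 23601156 counts, the largest 62941462, and the median was 41955693. The melanocyte markers MITF, PMEL, MLANA, TYR, TYRP1 and SOX10 were at 249 CPM or more (CPM, the counts of a gene scaled to library size with TMM factors) in all 18 libraries, whereas DCT ranged from 1.16 to 524 CPM. Leukocyte, endothelial and epithelial markers did not pass 1.67 CPM in any library, and of the fibroblast markers only LUM was above 2.05 CPM (14.8 to 31.7 CPM). The library of Mel92.1 UNC0642 replicate 1 stood apart, with the lowest total and 32.8% of its counts on ribosomal RNA genes against 3.31 to 19.5% in the others. In 4 libraries the line went against the label. Those labelled Mel92.1 A366 replicates 2 and 3 held 0.0348% and 0.0124% of the Mel92.1 DMSO level of 20 genes found only in Mel92.1, and the libraries labelled MP41 A366 replicates 2 and 3 held 110% and 95.2% of it. These 4 libraries were therefore placed in the other line and are named below by their labels. The study's own data set places them likewise. Counts of members called with A366 in MP41 and in the line difference, and the values of LAMB3, are also given with the groups as labelled and without the 4 libraries, which leaves 1 A366 library per line.

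LAMB3, a laminin beta chain that joins LAMA3 in the anchorage of epithelia, was the only member past the test with A366 in both lines, and its start regions are shown because the results turn on it. The gene lies on the minus strand at chr1:209614870-209652466 (GRCh38), and RefSeq (GRCh38.p14) lists several transcript starts. Windows of 250 bases before to 50 bases after a start are printed 5′ to 3′ on the strand of the gene, with the letters TGANTCA, the AP-1 motif, in capitals. The motif reads the same on both strands. The first window is that of the most upstream start, chr1:209652376-209652675, and the second that of a downstream start, chr1:209651325-209651624. The third is that of a start of LAMA3, the partner alpha chain of LAMB3, on the plus strand at chr18:23872770-23873069. This start lies inside the LAMA3 gene, which spans chr18:23689443-23956222 (GRCh38).
LAMB3 upstream start: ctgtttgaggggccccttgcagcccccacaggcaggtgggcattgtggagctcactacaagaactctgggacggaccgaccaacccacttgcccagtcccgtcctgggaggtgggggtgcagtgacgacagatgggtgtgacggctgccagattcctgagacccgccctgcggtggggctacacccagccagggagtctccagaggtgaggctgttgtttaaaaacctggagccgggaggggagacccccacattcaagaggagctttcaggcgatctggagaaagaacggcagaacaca
LAMB3 downstream start: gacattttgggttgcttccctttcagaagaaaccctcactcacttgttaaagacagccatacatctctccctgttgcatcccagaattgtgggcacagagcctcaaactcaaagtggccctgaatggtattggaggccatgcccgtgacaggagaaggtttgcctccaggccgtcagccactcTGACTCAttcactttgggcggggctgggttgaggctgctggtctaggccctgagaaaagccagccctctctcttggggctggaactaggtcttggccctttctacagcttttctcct
LAMA3 start: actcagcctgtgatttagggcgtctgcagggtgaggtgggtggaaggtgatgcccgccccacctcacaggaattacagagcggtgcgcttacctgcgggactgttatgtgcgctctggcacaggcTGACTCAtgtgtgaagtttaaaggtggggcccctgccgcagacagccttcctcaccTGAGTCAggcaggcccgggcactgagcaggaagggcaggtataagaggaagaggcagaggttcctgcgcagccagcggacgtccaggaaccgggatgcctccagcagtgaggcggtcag
The motif was found 67 bases before the downstream LAMB3 start and 125 and 69 bases before this LAMA3 start inside the gene. These letters were not in the upstream LAMB3 window. RefSeq lists 3 LAMB3 windows, and the one not printed, at chr1:209652280-209652579, did not hold them either. Of the 35116 windows in the RefSeq set 7.71% held the motif, as did 3 of the 33 windows of members (those of ITGA5, LAMA3 and LAMB3). Counts per gene do not show which start was used.

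With DMSO, LAMB3 in Mel92.1 was at 0.88, 1.04 and 1.19 CPM (replicates 1 to 3). With UNC0642 it was at 1.94, 2.28 and 2.42 CPM. In the Mel92.1 A366 group, which is the library labelled Mel92.1 A366 replicate 1 followed by those labelled MP41 A366 replicates 2 and 3, it was at 4.33, 3.84 and 4.42 CPM. The 3 groups did not overlap, with DMSO lowest and A366 highest. The mean with A366 was 4.06 times that with DMSO, a log2 fold change of 2.02 (SE 0.26, adjusted p = 0.0169). LAMB3 was the only 1 of 26 members tested that passed in this comparison, against 0.213% of all 14528 genes tested. The call was lost when any of the 6 DMSO or A366 libraries was left out, with adjusted p from 0.0751 (without Mel92.1 DMSO replicate 1) to 0.153 (without Mel92.1 A366 replicate 1) and log2 fold changes from 1.91 to 2.13. Without the 4 exchanged libraries the log2 fold change was 2.06 (adjusted p = 1), and with the groups as labelled it was 4.14 (adjusted p = 0.162). LAMB3 is among the genes that the study listed from these samples, so its call is not independent evidence.

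The UNC0642 libraries of Mel92.1 lay 2.14 times above DMSO in mean LAMB3 level, a log2 fold change of 1.10 (SE 0.25) that did not pass (adjusted p = 0.126). It passed without Mel92.1 UNC0642 replicate 1, the library that stood apart (1.19, adjusted p = 0.0168), and in the DESeq2 test (1.12, adjusted p = 0.0023). No member passed with UNC0642 in Mel92.1 in edgeR, against 0.688% of all genes. In DESeq2 2 members passed, against 2.64% of all genes. An unadjusted p under 0.05 in edgeR was found for 1442 of 14528 genes and for 4 of 26 members. These 4 were LAMB3, LAMB2 (log2 fold change -0.21), ITGA11 (-0.69) and LAMA5 (-0.33), named after their values were seen. Between the compounds at the same dose and time, LAMB3 was 1.90 times as high with A366 as with UNC0642 in Mel92.1 (log2 difference 0.92, SE 0.25, adjusted p = 0.338). It was 0.96 without the 4 exchanged libraries (adjusted p = 1) and 3.04 with the groups as labelled (adjusted p = 0.167). No member passed between the compounds in Mel92.1, against 0.165% of all genes. At an unadjusted p under 0.05 there were 5 of 26 members and 1047 of 14528 genes. In DESeq2 1 member passed, against 1.47% of all genes.

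In MP41, LAMB3 began from a higher level, with 9.34, 10.6 and 9.91 CPM in the DMSO libraries. UNC0642 libraries held 11.9, 13.98 and 13.2 CPM. The MP41 A366 group, here the library labelled MP41 A366 replicate 1 followed by those labelled Mel92.1 A366 replicates 2 and 3, held 25.1, 24.6 and 25.2 CPM. As in Mel92.1, the 3 groups were ordered DMSO, UNC0642, A366 without overlap. LAMB3 rose 2.51 times with A366 against DMSO (log2 fold change 1.30, SE 0.089, adjusted p = 6.62e-06) and by 0.92 on the log2 scale against UNC0642 (SE 0.088, adjusted p = 5.11e-05). The rise against DMSO was 1.29 without the 4 exchanged libraries (adjusted p = 1.49e-05) and 0.15 with the groups as labelled (adjusted p = 0.863), where the A366 libraries run from 3.84 to 25.1 CPM. With UNC0642 the log2 fold change against DMSO was 0.38 (SE 0.090) and did not pass (adjusted p = 0.162).

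LAMA3, the partner alpha chain of LAMB3, did not pass the test with A366 in either line. It was between 1.38 and 3.86 CPM over the 18 libraries, and its log2 fold change with A366 was 0.05 (SE 0.32) in Mel92.1 and 0.02 (SE 0.23) in MP41. Without the 4 exchanged libraries these were -0.27 and 0.06, and with the groups as labelled -0.18 and 0.29, and none passed. The plot of both chains by library shows LAMB3 separated by treatment in both lines, while the LAMA3 libraries of DMSO and A366 overlapped in each line. With UNC0642 in MP41, LAMA3 lay below DMSO without overlap, at 1.38, 1.58 and 1.43 CPM against 1.93, 2.14 and 1.89 CPM. This did not pass (log2 fold change -0.44, SE 0.23, adjusted p = 0.648). In Mel92.1 LAMA3 with UNC0642 overlapped DMSO (0.51, SE 0.32, adjusted p = 0.631).

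**Figure D1:**
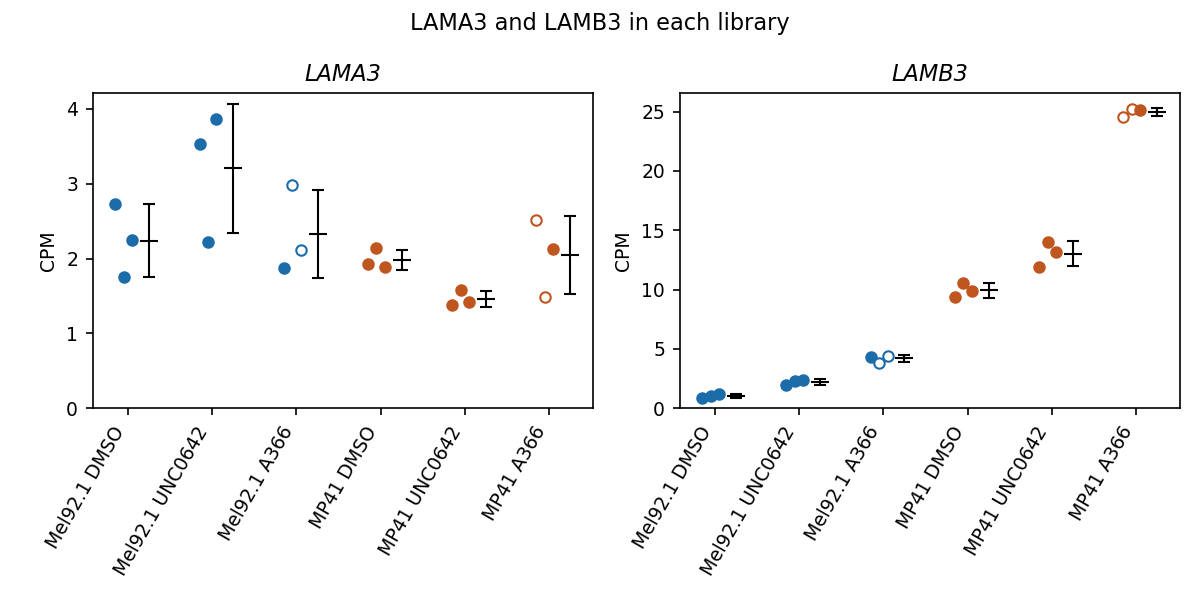
CPM of LAMA3 and LAMB3 (linear axes that start at 0 and differ in scale) in each library, by line and treatment. Blue is Mel92.1 and orange MP41, open circles are the 4 libraries labelled with the other line, black bars are the mean and SD of 3 libraries. LAMB3 groups do not overlap within either line, from 0.88 CPM in the lowest Mel92.1 DMSO library to 25.2 CPM in the highest MP41 A366 library.

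Without inhibitor the lines carried largely the same chains at different levels. At least 1 CPM on average was found with DMSO for 23 of 38 members in Mel92.1 and 23 in MP41. ITGB3 and LAMA2 were under 1 CPM in Mel92.1 only, and ITGA11 and ITGAX in MP41 only. Over all 6 groups 13 members stayed under 1 CPM, among them ITGA2B, ITGA4, ITGA8, ITGA10, ITGAD, ITGAL, ITGAM, ITGB2, ITGB6, ITGB7, ITGB8 and LAMB4, most of them chains of platelets, leukocytes or other tissues. Low counts kept 12 members out of the tests in Mel92.1 and 7 out of those in MP41 and of the comparison of the lines. Of the 31 members tested between the lines 26 passed, 8 higher and 18 lower in Mel92.1 (83.9%), against 69.4% of all 15799 genes, 34.5% higher and 34.8% lower. The median log2 difference was -0.77 for the tested members and -0.02 for all genes. In RNA from whole cultures, fewer cells of a kind and less RNA per cell cannot be told apart. ITGA1 and ITGB3 share their strand and position with other protein-coding genes in the annotation (PELO and AC068234.1), so their counts are less certain. ITGA7, ITGAE, ITGB4, ITGB7, LAMA4, LAMA5 and LAMB1 overlap protein-coding genes on the opposite strand. The same limit applies to them if strand was not kept, and the preparation is uncertain.

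ITGB3, the beta chain that pairs with ITGAV in the vitronectin receptor, set the lines apart most. It was at 0.737, 0.293 and 0.129 CPM in Mel92.1 with DMSO and at 85.6, 84.4 and 88.2 CPM in MP41. The log2 difference was -7.70 (SE 0.36, adjusted p = 4.48e-12). ITGB3 also followed the line and not the label in the exchanged libraries, with 83.8 and 51.5 CPM in the pair labelled Mel92.1 A366 replicates 2 and 3, and 0.501 and 0.325 CPM in those labelled MP41. Its partner ITGAV was at 113, 72.3 and 68.6 CPM in Mel92.1 and 192, 195 and 205 CPM in MP41 (log2 difference -1.22, SE 0.19, adjusted p = 1.91e-05). ITGB5, another partner of ITGAV, was also lower in Mel92.1 (-1.17, SE 0.061, adjusted p = 1.54e-11). ITGA5, the alpha chain of the fibronectin receptor, was higher in Mel92.1, at 91.2, 87.1 and 90.9 CPM against 55.4, 52.2 and 54.2 CPM (0.73, SE 0.053, adjusted p = 1.24e-09).

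Collagen receptors differed in both directions. ITGA11 was at 3.99, 3.46 and 3.89 CPM in Mel92.1 and at 0.324, 0.325 and 0.0435 CPM in MP41, where it had 2 to 15 counts per library (log2 difference 4.02, SE 0.62, adjusted p = 1.7e-05). ITGA1 was instead lower in Mel92.1, with 6.16, 3.33 and 2.37 CPM against 29.1, 22.8 and 25.4 CPM (-2.69, SE 0.45, adjusted p = 4.56e-05), and ITGA2 was lower as well (-1.44, SE 0.19). Neither ITGA1 nor ITGA11 overlapped between the lines. ITGA10 passed with at most 17 counts in any DMSO library, and ITGAM and ITGB2, chains of leukocyte integrins, passed with at most 2 counts per Mel92.1 DMSO library and 4 to 24 per MP41 library, so no fold change is given for these 3. The ITGA10 call was lost without Mel92.1 DMSO replicate 2 or 3 or MP41 DMSO replicate 2. ITGAX, a leukocyte chain that pairs with ITGB2, was at 2.87, 2.18 and 2.65 CPM in Mel92.1 and 0.735, 0.558 and 0.891 CPM in MP41 (1.81, SE 0.33, adjusted p = 8.83e-05).

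All 4 chains of the laminin-binding integrins passed, and 3 of them were lower in Mel92.1. ITGA6 was at 21.5, 13.9 and 14.2 CPM against 68.4, 70.2 and 66.9 CPM (log2 difference -2.05, SE 0.19, adjusted p = 3.76e-08), and ITGB4, the chain that pairs with ITGA6 in hemidesmosomes, was at 1.82, 1.62 and 1.70 CPM against 5.34, 5.39 and 5.43 CPM (-1.65, SE 0.29, adjusted p = 6.32e-05). ITGA3 was lower too (-0.93, SE 0.082), and ITGA7 was higher (0.65, SE 0.17), a call lost after adjustment for GC content and length (0.25, adjusted p = 0.239). ITGB1, the beta chain shared by all 4 collagen-binding alpha chains and by ITGA3, ITGA5, ITGA6 and ITGA7 among others, was at 883, 732 and 701 CPM in Mel92.1 and 364, 378 and 374 CPM in MP41 (1.05, SE 0.10, adjusted p = 4.51e-08). Of its alpha partners, ITGA5, ITGA7 and ITGA11 were also higher in Mel92.1, and ITGA1, ITGA2, ITGA3, ITGA6, ITGA9 and ITGAV were lower.

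The laminin chains were split as well. LAMA4, an alpha chain of vessels and nerve, was at 5.01, 4.44 and 3.81 CPM in Mel92.1 and 50.5, 57.5 and 49.8 CPM in MP41 (log2 difference -3.57, SE 0.19, adjusted p = 2.22e-11), and LAMB3 differed nearly as much (-3.27, SE 0.14, adjusted p = 1.52e-12). LAMC1, the gamma chain of most laminins, was at 289, 215 and 207 CPM against 691, 661 and 699 CPM (-1.53, SE 0.12, adjusted p = 3.52e-09). LAMA5, the alpha chain of the widest spread in adult basement membranes, was higher in Mel92.1 with 119, 89.8 and 90.8 CPM against 47.5, 47.4 and 49.2 CPM (1.06, SE 0.11, adjusted p = 1.65e-07). LAMC3 was at 52.4, 50.2 and 47.6 CPM against 29.7, 31.2 and 29.8 CPM (0.73, SE 0.11, adjusted p = 1.01e-05), and after the same adjustment the difference was 0.28 (adjusted p = 0.0584). LAMB2 was higher (0.72, SE 0.059) and LAMB1 (-0.39, SE 0.089) and LAMA1 (-0.44, SE 0.15) lower in Mel92.1. LAMA1 lost its call without Mel92.1 DMSO replicate 2 (-0.34, adjusted p = 0.0764) or replicate 3 (-0.34, adjusted p = 0.0712). LAMA2 and LAMA3 did not pass.

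Per kilobase of the longest transcript, the scale on which genes can be set against each other, ITGB1 led in both lines with 204 ± 25.8 CPM per kilobase in Mel92.1 and 98.4 ± 1.84 in MP41 (SD, n = 3). The lead in MP41 depended on the length used, since per kilobase of the median transcript LAMC1 was at 923 and ITGB1 at 654 CPM per kilobase there. LAMB2 (31.6 ± 1.07) and LAMC1 (30.0 ± 5.73) came next in Mel92.1 and lay within their spread of each other. LAMC1 (86.7 ± 2.55) and ITGB5 (31.0 ± 0.777) came next in MP41. Per kilobase of the median transcript ITGAV, LAMB1 and LAMB2 lay above ITGB5 there, so this order also depended on the length. In Mel92.1 LAMB1 (18.5 ± 1.65), ITGA5 (17.96 ± 0.451) and LAMA1 (17.7 ± 3.85) could not be ordered beyond their spread, and in MP41 the same held for LAMB1 (24.3 ± 0.221) and LAMA1 (24.1 ± 0.185). LAMB3 stood at rank 22 of 38 in Mel92.1 (0.240 ± 0.0354) and rank 18 in MP41 (2.31 ± 0.143). These ranks and the ties above were taken on the longest transcript only.

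**Figure D2:**
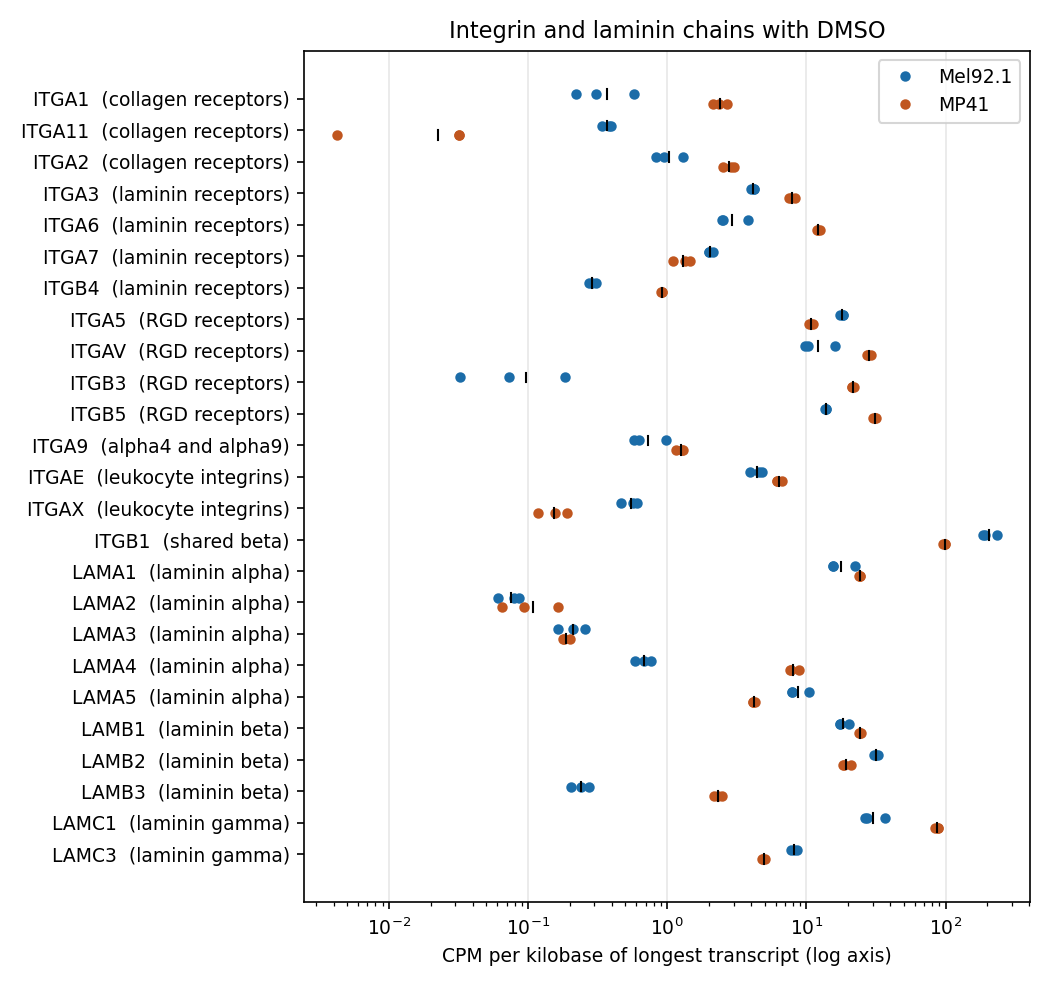
CPM per kilobase of longest transcript (log axis) of the 25 members with at least 1 CPM on average with DMSO in either line, grouped by role. Each dot is 1 DMSO library (blue Mel92.1, orange MP41) and the black tick is the mean of 3, and ITGB3, ITGA11, LAMA4 and LAMB3 lie furthest apart between the lines, while ITGB1 leads in both on this length (LAMC1 leads in MP41 per kilobase of median transcript).

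In MP41, many genes passed with A366 against DMSO, members among them. Of the 31 tested, 15 passed against DMSO, 4 higher and 11 lower (48.4%), a share near the 46% of all 14956 genes tested, 22.5% higher and 23.5% lower. The median log2 fold change was -0.01 for the tested members and 0.02 for all genes. Among laminin chains LAMB2 and LAMB3 rose, and LAMA1, LAMA5, LAMB1 and LAMC1 fell. Among integrin chains ITGA7 and ITGB4 rose, and ITGA1, ITGA2, ITGA6, ITGA9, ITGAV, ITGB1 and ITGB3 fell. The count was 13 (2 higher, 11 lower) without the 4 exchanged libraries, where 35.7% of all genes passed, and 10 (3 higher, 7 lower) with the groups as labelled, where 32.8% did.

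ITGAV and ITGA2 had the largest falls among the members that passed, and their log2 fold changes lay within an SE of each other. ITGAV was at 192, 195 and 205 CPM with DMSO, 181, 213 and 195 CPM with UNC0642, and 104, 141 and 90.1 CPM in the MP41 A366 group. The 3 A366 libraries lay below all DMSO and UNC0642 libraries, and the log2 fold change against DMSO was -0.85 (SE 0.13, adjusted p = 0.000683). ITGA2, a collagen and laminin receptor, went from 23.6, 19.7 and 22.5 CPM with DMSO to 11.8, 15.3 and 10.3 CPM with A366 (-0.84, SE 0.13, adjusted p = 0.000703), and was at 22.2, 21.5 and 23.6 CPM with UNC0642. ITGA9, which binds tenascin among other ligands, was at 9.19, 10.3 and 10.0 CPM with DMSO and 5.74, 7.18 and 5.13 CPM with A366 (-0.73, SE 0.13, adjusted p = 0.00119). ITGA6 was at 68.4, 70.2 and 66.9 CPM with DMSO and 47.3, 54.5 and 36.1 CPM with A366 (-0.60, SE 0.12, adjusted p = 0.00196). For these 4 alpha chains the DMSO and A366 libraries did not overlap, and each call held under all 16 alternatives tried. The groups as labelled are among the 16, but their MP41 A366 group holds libraries that were placed in Mel92.1. All 4 chains were lower in Mel92.1 than in MP41 with DMSO, so that alternative cannot show a fall with A366. The falls against DMSO were -0.43 for ITGAV, -0.42 for ITGA2, -0.51 for ITGA9 and -0.33 for ITGA6 after adjustment of each gene for its GC content and length.

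LAMA1, the alpha chain of early basement membranes, was at 251, 248 and 251 CPM with DMSO and 161, 209 and 150 CPM with A366 (log2 fold change -0.55, SE 0.10, adjusted p = 0.00153). LAMC1 was at 691, 661 and 699 CPM with DMSO and 519, 609 and 496 CPM with A366 (-0.36, SE 0.073, adjusted p = 0.00228). In both cases all 3 A366 libraries lay below all DMSO libraries, and the call held under all 16 alternatives, although the LAMC1 fall was -0.13 after this adjustment. LAMB2, which takes the place of LAMB1 in laminins of muscle, nerve and kidney, was at 104, 118 and 105 CPM with DMSO and 138, 142 and 143 CPM with A366 (0.35, SE 0.070, adjusted p = 0.00209), while LAMB1 fell (-0.37, SE 0.082, adjusted p = 0.00376), and these calls also held under all 16 alternatives. With DMSO, LAMA1, LAMC1 and LAMB1 were lower and LAMB2 higher in Mel92.1 than in MP41. The groups as labelled therefore cannot decide on these calls. ITGB1 was at 364, 378 and 374 CPM with DMSO and 313, 343 and 272 CPM with A366 (-0.29, SE 0.077, adjusted p = 0.00923). The ITGB1 log2 fold change was 0.83 with the groups as labelled (adjusted p = 0.0821) and -0.09 after this adjustment (adjusted p = 0.153).

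Other calls rested on single libraries. ITGA7 was at 5.49, 4.55 and 5.997 CPM with DMSO and 7.34, 7.16 and 8.42 CPM with A366 (log2 fold change 0.49, SE 0.15, adjusted p = 0.017). Its adjusted p was 0.0676 without Mel92.1 A366 replicate 3, 0.0694 without MP41 DMSO replicate 2 and 0.153 without the 4 exchanged libraries. ITGB4 was at 5.34, 5.39 and 5.43 CPM with DMSO and 7.42, 6.78 and 8.57 CPM with A366 (0.47, SE 0.15, adjusted p = 0.0232). The ITGB4 call was lost without any of the 3 MP41 DMSO libraries (adjusted p 0.0625, 0.0561 and 0.0606 for replicates 1 to 3), without Mel92.1 A366 replicate 3 (0.0971), without MP41 A366 replicate 1 (0.0556) and without the 4 exchanged libraries (0.143), and the direction turned with the groups as labelled (-0.71). ITGA1 was at 29.1, 22.8 and 25.4 CPM with DMSO and 18.9, 23.2 and 17.5 CPM with A366, so that the groups overlapped (-0.40, SE 0.12, adjusted p = 0.0148). It was lost without Mel92.1 A366 replicate 3 (adjusted p = 0.051), MP41 DMSO replicate 1 (0.0805) or MP41 A366 replicate 1 (0.0672), and its direction turned after the adjustment for GC content and length (0.12). ITGB3 (-0.39) and LAMA5 (-0.23) lost their calls without any of the 3 MP41 DMSO libraries (adjusted p 0.067 to 0.0887 and 0.0514 to 0.0815) and without MP41 A366 replicate 1 (0.103 and 0.128), ITGB3 also without Mel92.1 A366 replicate 3 (0.0819), and with the groups as labelled LAMA5 was at 0.59 and the calls of ITGA1, ITGB3 and LAMA5 were lost. The remaining calls, those of LAMB1, LAMB2, LAMB3, LAMA1, LAMC1, ITGA2, ITGA6, ITGA9, ITGAV and ITGB1, held without each single library in turn.

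GC content moved with the direction. The 4 members that rose had longest transcripts of 58.9 to 63.7% GC (median 60.3%), and the 11 that fell had 38.3 to 66.4% (median 48.6%), with LAMA5 the only 1 of the 11 over 52.3%. Over all genes the same contrast gave medians of 56.2% for those higher and 42.1% for those lower. Median length was 4989.5 bases for the members that rose and 7869 bases for those that fell. Across the 23 members with at least 1 CPM in MP41 with DMSO or A366, the log2 fold change and GC content had Pearson r = 0.611 and Spearman rho = 0.65, a description over genes that share the same 6 libraries. After this adjustment, 12 members passed (3 higher, 9 lower) against 35% of all genes, and the LAMB3 rise was 1.17 (adjusted p = 4.99e-06). The part of GC content and length in the other changes was not tested further.

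**Figure D3:**
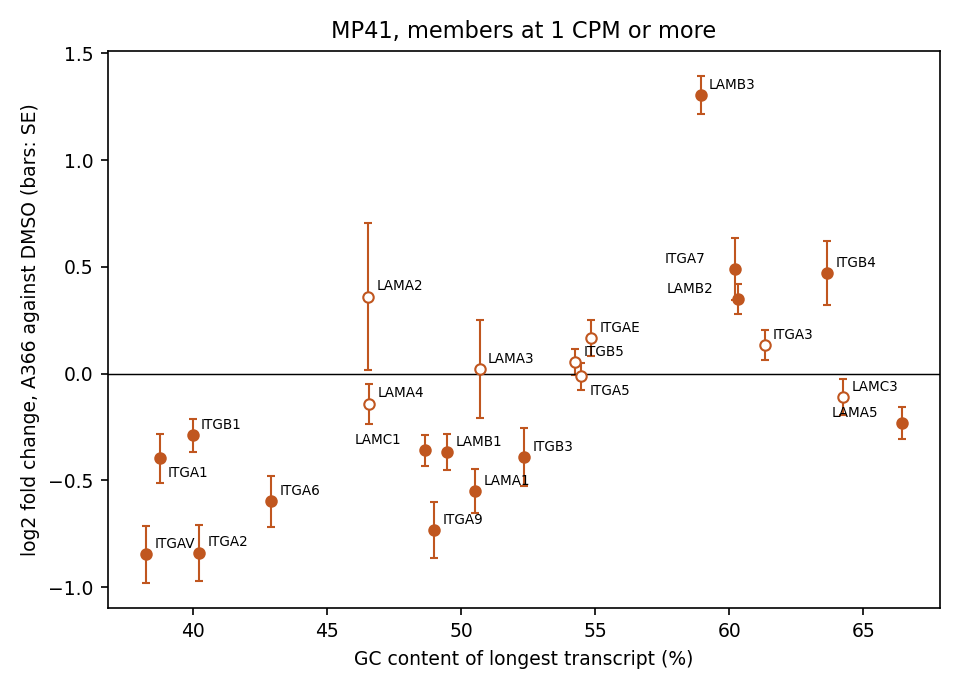
Log2 fold change of A366 against DMSO in MP41 (y axis, bars are SE) against GC content of the longest transcript in percent (x axis) for the 23 members at 1 CPM or more. Filled circles passed an adjusted p of 0.05 and open ones did not, and the 4 members that rose lie at 58.9% GC or more, with LAMB3 alone above 1 on the y axis.

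The A366 libraries of MP41 also differed among themselves. The library labelled Mel92.1 A366 replicate 2 was the highest of the 3 for 16 of 23 members at 1 CPM or more, and that labelled Mel92.1 A366 replicate 3 was the lowest for 13. In Mel92.1 the DMSO replicate 1 library was the highest of 3 for 19 of 23 members, for example 289 CPM against 215 and 207 CPM for LAMC1 and 230 against 162 and 160 CPM for LAMA1. Its part in the comparisons of Mel92.1 was not tested beyond leaving it out.

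UNC0642 in MP41 gave no call among 31 members, against 0.241% of all genes in edgeR. An unadjusted p under 0.05 was found for 7 members and for 1316 of 14956 genes. In DESeq2 2 members passed, against 1.2% of all genes. LAMB3 and LAMA4 were these 2, named after their values were seen. LAMA4 was at 50.5, 57.5 and 49.8 CPM with DMSO and at 41.7, 42.3 and 37.9 CPM with UNC0642 without overlap (log2 fold change -0.38, SE 0.094, adjusted p = 0.187). Without the 4 exchanged libraries LAMA4 passed in edgeR (-0.38, adjusted p = 0.0351).

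Between the compounds at the same dose and time in MP41, 12 of 31 members passed (38.7%), 3 higher and 9 lower with A366, against 43.1% of all genes, 21.1% higher and 22% lower. The A366 libraries are the same as in the comparison with DMSO, and 2 members, ITGB5 and LAMC3, passed here but not against DMSO. LAMA5 was at 54.5, 57.0 and 54.5 CPM with UNC0642 and 38.4, 45.0 and 41.3 CPM with A366 (log2 difference -0.43, SE 0.073, adjusted p = 0.000981), with no overlap. ITGB5 was at 123, 122 and 121 CPM with UNC0642 and 144, 133 and 152 CPM with A366 (0.21, SE 0.063, adjusted p = 0.0171), and LAMC3 was lower with A366 (-0.33, SE 0.085, adjusted p = 0.00839). ITGA2 (-0.87), ITGAV (-0.83), ITGA9 (-0.82), ITGA6 (-0.60), LAMA1 (-0.40), LAMC1 (-0.27) and ITGB1 (-0.20) were lower and LAMB2 (0.34) and LAMB3 (0.92) higher. The ITGB5 call was lost without Mel92.1 A366 replicate 3 (adjusted p = 0.0753), MP41 UNC0642 replicate 3 (0.0581) or MP41 A366 replicate 1 (0.0574), the LAMC1 call without MP41 A366 replicate 1 (0.0597), and the ITGB1 call without Mel92.1 A366 replicate 3 (0.151), MP41 A366 replicate 1 (0.118) or any of the 3 UNC0642 libraries (0.0808 to 0.132). After adjustment for GC content and length the calls of ITGB5 (0.14, adjusted p = 0.0513), LAMC1 (-0.05, adjusted p = 0.348) and ITGB1 (-0.02, adjusted p = 0.725) were lost, LAMA1 was at -0.16 (adjusted p = 0.0276), and 12 members passed, 5 higher and 7 lower, against 35.2% of all genes. As labelled, 7 members passed against 31% of all genes. The log2 differences then turned for LAMA5 (0.39), LAMB3 (-0.24), LAMC3 (0.0435), ITGB1 (0.92) and ITGB5 (-0.44). Without the 4 exchanged libraries 14 passed, against 34.4% of all genes.

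The response to A366 was also set between the lines, by subtracting the log2 fold change of MP41 from that of Mel92.1. Of 31 members 4 passed (12.9%), a share near the 13.8% of all genes. These 4 were LAMB1, LAMB2, LAMB3 and ITGAV, which did not share a direction. LAMB3 changed more in Mel92.1 (0.70, SE 0.19, adjusted p = 0.0226). LAMB2 (-0.44, SE 0.084, adjusted p = 0.00464) was at 184, 172 and 181 CPM with DMSO and 163, 173 and 175 CPM with A366 in Mel92.1, a log2 fold change of -0.07 there against 0.35 in MP41. LAMB1 (0.42, SE 0.13, adjusted p = 0.0364) and ITGAV (0.86, SE 0.27, adjusted p = 0.0408) had log2 fold changes of 0.08 and 0.04 in Mel92.1, where neither passed. No member passed without the 4 exchanged libraries, where 1.24% of all genes did, and 18 passed with the groups as labelled, where 49.4% did. The LAMB2 call held without each single library in turn. The LAMB3 call was lost without Mel92.1 DMSO replicate 2 (adjusted p = 0.0602), MP41 DMSO replicate 2 (0.051) or 3 (0.0522), Mel92.1 A366 replicate 1 (0.0604) or 3 (0.0647) or MP41 A366 replicate 1 (0.0615). The ITGAV and LAMB1 calls were lost without any of 9 of the 12 libraries, all but Mel92.1 DMSO replicate 1, Mel92.1 A366 replicate 2 and MP41 A366 replicate 3, with adjusted p up to 0.118 and 0.102. After the adjustment for GC content and length only LAMB3 still passed (0.89, adjusted p = 0.0139), against 3.24% of all genes. For UNC0642 no member differed between the lines at the threshold, against 0.601% of all genes. An unadjusted p under 0.05 was found for 8 members and for 1546 of 15799 genes. In DESeq2 2 members passed, against 1.99% of all genes.

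**Figure D4:**
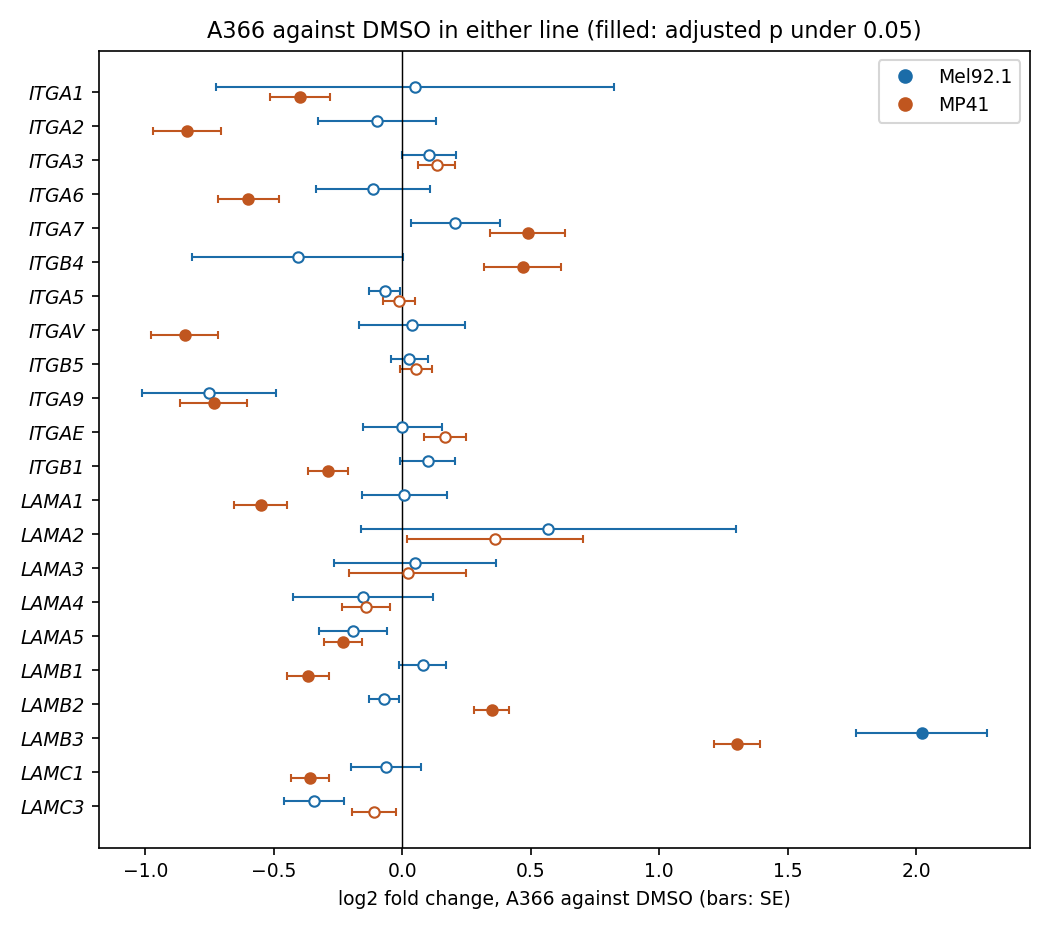
Log2 fold change of A366 against DMSO (x axis, bars are SE) for the 22 members at 1 CPM or more in both lines, with blue for Mel92.1 and orange for MP41. Filled circles passed an adjusted p of 0.05, which in Mel92.1 was LAMB3 alone (2.02), whereas in MP41 LAMB3 (1.30) rose and ITGAV (-0.85) and ITGA2 (-0.84) fell furthest.

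Genes that act with the members were examined as 3 lists. None of the 28 integrin activators and adhesion adaptors, 18 basement membrane partners and other laminin receptors or 11 other integrin ligands tested in Mel92.1 passed with either inhibitor, where 0.688% of all genes passed with UNC0642 and 0.213% with A366. In MP41 with A366, 14 of 27 adaptors passed (4 higher, 10 lower), or 51.9% beside the 46% of all genes, with a median log2 fold change of -0.0049 beside 0.02 for all genes. Of 19 basement membrane partners 5 passed (26.3%), and CD151, a tetraspanin bound to laminin-binding integrins (log2 fold change 0.67), and RPSA (0.32) rose while AGRN (-0.28), SDC1 (-0.29) and SDC2 (-4.08, SE 1.18) fell. Of 13 other ligands 5 passed (38.5%), with VWF (2.73), VTN (1.16), the vitronectin bound by ITGAV pairs, and MFGE8 (0.52) higher and TNC (-2.21, SE 0.68), a tenascin, and THBS1 (-0.88) lower. With UNC0642 in MP41, 1 ligand passed, SPP1 or osteopontin, another ligand of ITGAV pairs (0.31, adjusted p = 0.0353). These genes were named after their values were seen. Their levels are not given here. Whether the large changes of SDC2, VWF and TNC rest on low counts was not tested. Without the 4 exchanged libraries 12 of 27 adaptors, 4 of 19 partners and 3 of 15 ligands passed in MP41 with A366, and the calls of SDC1, SDC2, VTN, THBS1 and TNC were lost. As labelled, 15, 7 and 2 passed, the directions of AGRN (2.55), SDC1 (2.06), SDC2 (0.95) and VTN (-0.14) turned, and SDC2, VTN, VWF, THBS1 and TNC were not called. After adjustment for GC content and length the THBS1 call was lost (-0.57, adjusted p = 0.136), and CD151 was at 0.23 (adjusted p = 0.0076).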

How the data were processed

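RNA-seq was analysed from 18 libraries of Mel92.1 and MP41 cells. The authors deposited expected counts per gene symbol, which are RSEM estimates and were rounded to whole numbers here. The submitters' processing notes name Bowtie2 2.1.0, RSEM 1.2.15 and hg38, whereas the methods of the study describe another pipeline. The labels describe oligo-dT selection with strand marking and the series text describes ribosomal RNA depletion, so the preparation is uncertain. Reads shared between near-identical genes are divided by an estimate in RSEM, which can blur such genes. No column was left unused (0), and no comparison by the authors is in the table.

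Groups followed the labels except that 4 A366 libraries were placed in the other line, as described in the results. In R 4.3.3, edgeR 4.0.16 fitted quasi-likelihood models after filtering by expression and TMM scaling, with 1 fit of 9 libraries per line and 1 fit of 18 libraries for the comparisons between lines. P-values were adjusted by the Benjamini-Hochberg method over all genes tested and 0.05 was the threshold. SE is the absolute log2 fold change divided by the square root of F. Error between replicates is limited to 3 libraries per group, and depth was 23601156 to 62941462 counts. DESeq2 1.42.0, other scalings, no filter, a replicate block, a spline adjustment for GC content and length (5 degrees of freedom, 564 genes without a value), the labelled groups, removal of the exchanged libraries and removal of each library were alternatives. Of the 26475 symbols, 23899 matched GENCODE by name and 719 through a RefSeq synonym. On simulated counts with 200 genes changed by 1.5 on the log2 scale, A366 against DMSO recovered 168 with 6 false calls in Mel92.1 (14428 genes) and 175 with 11 in MP41 (14802 genes). The data differ from this setting, since 46% of all genes passed with A366 in MP41 and every member called there changed by less than 1.5. The figures therefore do not measure how reliable the calls in the data are.

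All members could be named, except that the values of some are not reported here. Values per library were given for members past the threshold in the smaller comparisons, for the 6 largest changes per direction at 1 CPM or more in the others, and for LAMB3, ITGB1 and LAMC1, with others named for their dependence on single libraries or their role. The members and gene lists were chosen with earlier results of these data known.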

Additional observations from a re-analysis of the deposited data

Results flagged for a closer look

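The response to A366 differed between the lines for 4 members by the interaction term of the 18-library edgeR fit, given as the log2 fold change of Mel92.1 less that of MP41. The difference was 0.86 for ITGAV (SE 0.27, adjusted p = 0.0408), 0.42 for LAMB1 (SE 0.13, adjusted p = 0.0364), -0.44 for LAMB2 (SE 0.084, adjusted p = 0.00464) and 0.70 for LAMB3 (SE 0.19, adjusted p = 0.0226). Of 21 alternatives, the call held in 7 for ITGAV, 6 for LAMB1, 17 for LAMB2 and 13 for LAMB3. All 4 kept their direction in every alternative run. With 3 samples in each group, no outlier test was run, although each library was left out in turn. Mel92.1 UNC0642 replicate 1 stood apart in its total and ribosomal RNA share.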

How the results depend on the processing

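Of 62 results for single members, all kept their call with RLE factors, 58 with DESeq2 (4 more passed), 57 without a composition factor, 60 without the filter, 48 with the GC and length adjustment, 54 without the 4 exchanged libraries and 43 with the groups as labelled. Library size without a composition factor moved the median log2 value of all genes by -0.211 for UNC0642 against DMSO and 0.235 for A366 against UNC0642 in Mel92.1, by -0.2 between the lines, and by -0.214 and 0.114 for the line differences with UNC0642 and A366, and no called member reversed under either scaling. As labelled, ITGB1 was at 0.83 against DMSO and 0.92 against UNC0642 in MP41, ITGB4 at -0.71 against DMSO, ITGB5 at -0.44 against UNC0642, LAMA5 at 0.59 and 0.39, LAMB3 at -0.24 and LAMC3 at 0.0435 against UNC0642. ITGA1 with A366 in MP41 was at 0.12 with the GC and length adjustment. The causes were not tested.

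Members called with UNC0642 in Mel92.1 numbered 2 in DESeq2, 1 with the adjustment and 1 in the 18-library fit, and in MP41 2, 1 with the adjustment and 1 without the exchanged libraries. A366 in Mel92.1 gave 0 as labelled and 0 without the exchanged libraries. A366 against UNC0642 gave 1 in Mel92.1 in DESeq2 and 1 in the 18-library fit, and 7 in MP41 as labelled. The line difference for UNC0642 gave 2 in DESeq2 and 1 with the adjustment. That for A366 gave 7 in DESeq2, where 22.1% of all genes passed, and 0 without a composition factor. It gave 1 with the adjustment, where 3.24% of all genes passed, and 18 as labelled, where 49.4% did. Leaving out 1 library at a time gave 0 to 1 members for UNC0642 in Mel92.1 and 0 to 0 for A366 in Mel92.1. In MP41 it gave 11 to 17 for A366 and 9 to 16 for A366 against UNC0642. Between the lines it gave 24 to 26, and for the line differences 0 to 1 with UNC0642 and 1 to 9 with A366. The shares of all genes called in these runs are not reported here, so the ranges are not read as a result about the members. Of the genes called in the A366 line difference 37.2% were higher in Mel92.1, against 48.8% in DESeq2 and 53.3% without a composition factor, and of those called between the compounds in MP41 49% were higher with A366, against 38% without a composition factor.

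Same-numbered libraries of a line had correlations of deviations from -0.38 to 0.49, and differently numbered ones from -0.58 to 0.59. No pairing by replicate number was seen. The exchanged libraries carry numbers from labels of the other line, so the check cannot decide for them. A replicate block kept the call of 55 of the 62 results, ITGA9 between the lines not among them (-0.51, adjusted p = 0.0961), and gave 0 members for A366 in Mel92.1 and 2 for the A366 line difference, and the block with the adjustment gave 0, 1 for UNC0642 in MP41 and 1 for the A366 line difference. Under the block with the adjustment, ITGA1 with A366 in MP41 was at 0.13 and LAMA1 between the lines at 0.0485. Shares of all genes called under either block are not reported here. With 1 A366 library per line after the exchanged libraries were left out, that library was assumed to vary like the other groups.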
